A study of Rattus norvegicus with 18 samples.

Results

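Outer segment phagocytosis is the daily uptake, by the retinal pigment epithelium (RPE), of the tips that photoreceptors shed. The 10 genes described here encode its best known receptors and ligands, together with related uptake genes: the receptors Mertk, Axl and Tyro3, their ligands Gas6 and Pros1, the integrin subunits Itgav and Itgb5, the integrin ligand Mfge8, the scavenger receptor Cd36 and the adaptor Gulp1. They were taken by name, with earlier results of these data known, and all 10 were found among the 32285 genes of the retina table and the 32552 genes of the RPE/choroid table. Bulk RNA-seq of Fischer 344 (F344) rats, an inbred strain used for studies of aging, gave 18 libraries, with 3 per group in each tissue. Young rats were 4 months old by the labels (other descriptions of the animals give 3 months), aged rats were 24 months old and drank water only, and 8-AG treated rats were also 24 months old and had received 8-aminoguanine (8-AG) in their drinking water at 5 mg/kg body weight per day for 8 weeks, starting at 22 months. 8-AG inhibits purine nucleoside phosphorylase, an enzyme of purine salvage. The study used female rats and took retina and RPE/choroid separately, and the sources do not say how many eyes went into a library. In RPE/choroid, 2 of the young and 2 of the aged libraries carry a common number with the letters L and R in their labels, and no source says whether such libraries come from a single rat. The p-values therefore measure the spread between libraries, which may be partly technical. The labels give total RNA for the 3 retina libraries of 8-AG treated rats and polyA RNA for the other 15.

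In the uptake pathway, the secreted protein MFGE8 bridges phosphatidylserine on the outer segment surface to the integrin αvβ5, which is made of the products of Itgav and Itgb5 and holds the fragment at the apical face of the RPE. Engulfment then needs the receptor tyrosine kinase MERTK, a member of the TAM family with AXL and TYRO3, which is activated by the bridging ligands GAS6 and protein S (the product of Pros1). Loss of Mertk function leads to retinal degeneration in the Royal College of Surgeons rat, in which outer segment debris collects under the retina. The same receptors and ligands serve clearance of dead cells by microglia, macrophages and Müller glia, so a level in bulk tissue is a sum over cell types. Fewer cells of a type and less RNA per cell cannot be told apart in such samples.

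The promoter windows of the 4 genes that differed between aged and young retina are shown because these genes moved in opposite directions, Axl and Pros1 upward and Gas6 and Mfge8 downward. The windows run from 250 bases before to 50 bases after the start of transcription, are read 5′ to 3′ along the gene, and come from RefSeq on the rat build GRCr8. Capitals mark the GC box CCGCCC, searched on both strands (GGGCGG on the other). The windows lie at chr1:90423960-90424259 on the minus strand for Axl, chr11:13677049-13677348 on the plus strand for Pros1, chr16:82747426-82747725 on the plus strand for Gas6 and chr1:142489382-142489681 on the minus strand for Mfge8.
Axl: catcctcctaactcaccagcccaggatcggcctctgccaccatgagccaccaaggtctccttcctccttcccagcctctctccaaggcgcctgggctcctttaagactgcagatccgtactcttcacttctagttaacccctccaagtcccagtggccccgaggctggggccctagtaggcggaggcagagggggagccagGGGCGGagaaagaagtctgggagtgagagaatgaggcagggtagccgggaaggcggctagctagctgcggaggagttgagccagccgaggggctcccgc
Pros1: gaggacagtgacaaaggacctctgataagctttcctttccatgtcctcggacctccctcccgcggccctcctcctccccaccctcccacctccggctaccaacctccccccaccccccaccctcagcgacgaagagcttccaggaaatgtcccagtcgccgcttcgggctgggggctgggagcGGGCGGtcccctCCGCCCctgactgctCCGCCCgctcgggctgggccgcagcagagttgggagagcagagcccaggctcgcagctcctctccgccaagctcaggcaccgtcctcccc
Gas6: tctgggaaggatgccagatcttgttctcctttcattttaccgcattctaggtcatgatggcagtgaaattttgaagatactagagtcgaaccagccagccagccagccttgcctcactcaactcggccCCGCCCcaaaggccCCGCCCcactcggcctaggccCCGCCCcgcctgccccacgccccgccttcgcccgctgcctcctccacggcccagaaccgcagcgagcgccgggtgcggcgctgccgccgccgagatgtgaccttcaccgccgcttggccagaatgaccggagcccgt
Mfge8: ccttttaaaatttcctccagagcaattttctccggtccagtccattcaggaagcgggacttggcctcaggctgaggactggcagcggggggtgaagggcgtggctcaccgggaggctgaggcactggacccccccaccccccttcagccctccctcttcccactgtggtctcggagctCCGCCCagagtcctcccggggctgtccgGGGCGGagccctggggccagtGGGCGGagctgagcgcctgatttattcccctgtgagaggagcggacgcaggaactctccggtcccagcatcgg
The Axl window held 1 GC box, and the Pros1, Gas6 and Mfge8 windows held 3 each, so the count of this motif did not divide the genes that rose from those that fell. A GC box was present in 33.1% of the 33469 promoter windows of the table. Their G+C content was 63.0% for Axl, 69.0% for Pros1, 65.3% for Gas6 and 65.7% for Mfge8, against a median of 51.7% over all windows. Among the 10 genes, a TATA box (TATAAA, in 14.2% of all windows) was found in the Cd36 window alone and an AP-1 motif (TGANTCA, in 7.33%) in the Tyro3 window alone. The motif CCAAT (37.5% of all windows) and the core of the interferon-stimulated response element (3.92%) were in none of the 10. In the Tyro3 window some GC boxes overlapped each other. A match in these letters is a description of the window and not a site of binding.

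Retina libraries held 12283473 to 15644369 counts and RPE/choroid libraries 28573828 to 48203050. Levels are given as CPM, counts scaled to a common library size, with factors from the trimmed mean of M-values (TMM) over the 9 libraries of a tissue. The tissues were counted separately, so their levels were not tested against each other. Transcript lengths were not used here, so levels of different genes were not tested against each other. A gene named as the main part of a marker list is so by CPM alone. The summed level of 14 RPE markers was 314 to 656 CPM in retina and 6533 to 19243 CPM in RPE/choroid, and that of 13 rod markers was 36097 to 62176 CPM in retina and 616 to 54997 CPM in RPE/choroid. RPE/choroid libraries thus carried rod transcripts in very unequal amounts. RPE/choroid library 1 of the 8-AG treated rats stood apart from the other 8 of its tissue and is described beside the results it touches.

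The first comparison asked how aging changed uptake genes in the retina. Of the 9 members that passed the filter on low counts, Axl and Pros1 were higher and Gas6 and Mfge8 lower in aged than in young retina at an adjusted p under 0.05 (edgeR's quasi-likelihood test with Benjamini-Hochberg adjustment over all 14588 genes tested). These 4 of 9 compare with 14.6% of all genes called, 7.31% as higher and 7.27% as lower. The study counted a gene as differentially expressed when it changed by more than 1.5-fold at P below 0.05. By that rule, taken here with an unadjusted P, Axl alone was called, against 8.84% of all genes.

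**Figure D1:**
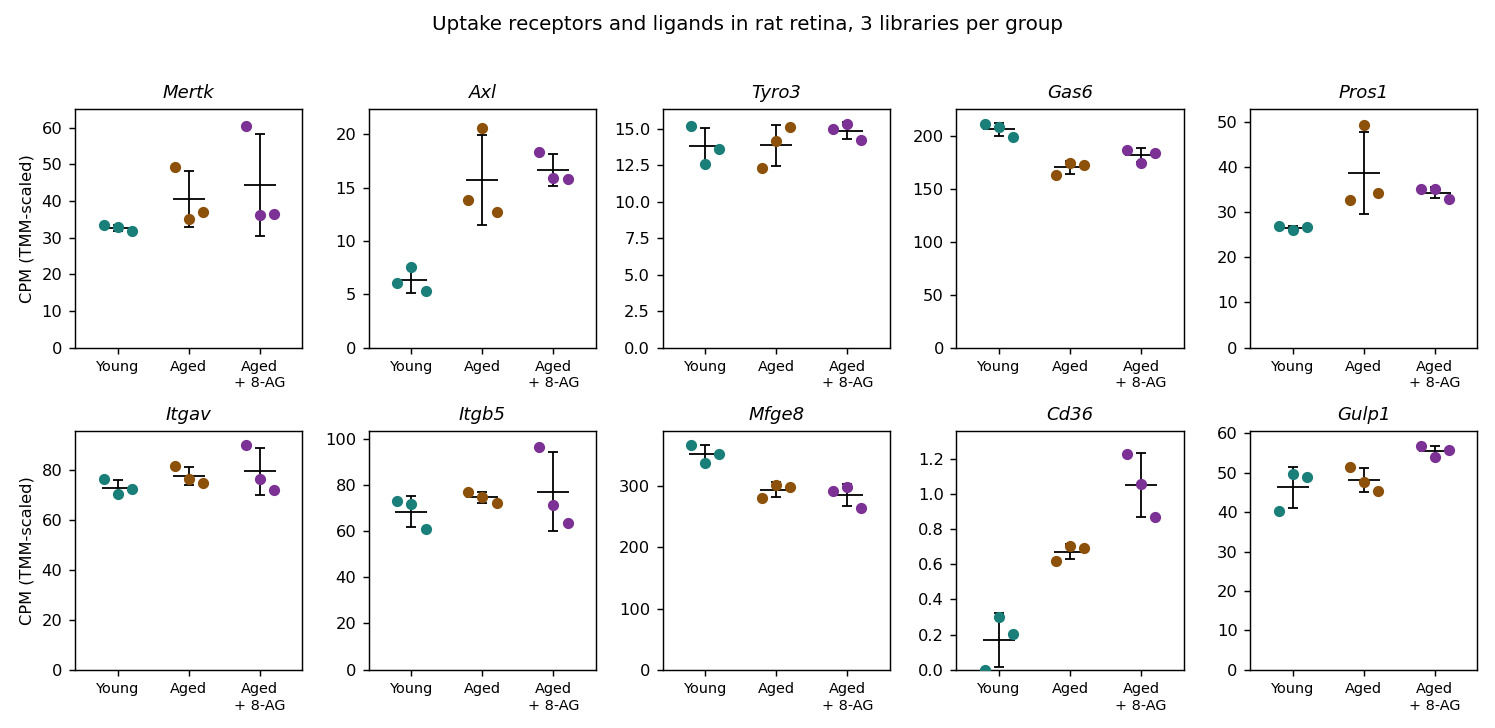
Level of each of the 10 genes in retina, in CPM on a linear axis from 0, for the 3 groups of rats. Points are the 3 libraries of a group, horizontal bars are means and vertical bars are SD; all 6 aged and 8-AG treated libraries lie above the young ones for Axl and Pros1 and below them for Gas6 and Mfge8.

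Axl is a TAM receptor that microglia and vascular cells express. It was at 6.01, 7.58 and 5.31 CPM in the 3 young retina libraries, at 13.8, 20.5 and 12.7 CPM in the aged ones and at 18.4, 15.9 and 15.8 CPM in those of 8-AG treated rats. Every aged and every treated library was above every young library, and the aged and treated libraries overlapped. Aged against young, Axl rose 2.50-fold (log2 fold change 1.32 ± 0.21 SE, adjusted p = 0.0044), and 8-AG treated against young it rose 2.66-fold (1.41 ± 0.15, adjusted p = 0.00047). The change in aged retina held when any single library was left out, with log2 fold changes of 1.08 to 1.48 and adjusted p of at most 0.031.

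Mertk, the receptor that RPE cells need for engulfment, was at 33.5, 32.8 and 31.8 CPM in young retina, 49.3, 35.2 and 37.0 CPM in aged retina and 60.5, 36.1 and 36.4 CPM after 8-AG. The young libraries lay within a range of under 2 CPM, and 1 library in each aged group stood well above the other two. Mertk had a log2 fold change of 0.31 ± 0.13 in aged against young retina and did not pass the test (adjusted p = 0.138), although the groups did not overlap. The estimate was 0.14 without aged library 1. The defining RPE gene Rpe65 was at 6.55, 18.5 and 2.18 CPM in young libraries 1 to 3, 41.1, 4.59 and 26.4 CPM in aged and 63.3, 32.0 and 24.4 CPM in treated ones. It was highest where Mertk was highest in the aged and in the treated group, but aged library 2, with more Mertk than every young library, had less Rpe65 than young libraries 1 and 2. The sum of 14 RPE markers was 408 to 508 CPM in young, 314 to 519.7 in aged and 462 to 656 in treated retina. Its largest part in every library was Rlbp1. That gene was at 295 to 317 CPM in young, 200 to 262 in aged and 237 to 247 in treated retina. The sum thus does not show how the less abundant markers, such as Rpe65, moved. In aged against young retina 9 of the 14 estimates were higher and 5 lower, their median being 0.60 on the log2 scale. Of these, 1 estimate, a lower one, passed an adjusted p under 0.05. The part of RPE transcripts in the level of Mertk was not tested beyond the fit described next. With the summed level of 5 RPE genes as a covariate, an alternative chosen after seeing the data, the log2 fold change of Mertk in aged against young retina was 0.21 (adjusted p = 0.337).

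Tyro3, the TAM receptor best known from neurons, showed no such separation. Its levels were 15.2, 12.6 and 13.6 CPM in young, 12.3, 14.2 and 15.1 CPM in aged and 14.99, 15.4 and 14.2 CPM in 8-AG treated retina, and all groups overlapped. The log2 fold change of aged against young was 0.01, with a 95% interval from -0.25 to 0.27.

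The 2 TAM ligands moved in opposite directions with age. Gas6, the ligand of all TAM receptors, was at 211, 208 and 199 CPM in young, 163, 175 and 173 CPM in aged and 187, 174 and 184 CPM in 8-AG treated retina. Pros1, which encodes the anticoagulant protein S and activates MERTK and TYRO3, was at 26.9, 26.0 and 26.6 CPM in young, 32.6, 49.1 and 34.1 CPM in aged and 35.0, 35.0 and 32.8 CPM in treated retina. No aged or treated library overlapped the young ones for either ligand, and aged library 2 was far above the others for Pros1. In aged against young retina Gas6 fell by 17.3% (log2 fold change -0.27 ± 0.06, adjusted p = 0.011) and Pros1 rose 1.46-fold (0.55 ± 0.15, adjusted p = 0.044). Gas6 lost its call without young library 1 (log2 fold change -0.25, adjusted p = 0.058) or 2 (-0.27, 0.053). Pros1 lost it without young library 1 (0.56, 0.129), 2 (0.54, 0.144) or 3 (0.54, 0.126) or without aged library 3 (0.63, 0.05), so the estimates without young libraries stayed close to those with all 6. Without aged library 2 the log2 fold change of Pros1 was 0.34 and the call was kept (adjusted p = 0.024).

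Itgav and Itgb5 encode the subunits of the binding integrin. Itgav was at 76.3, 70.2 and 72.2 CPM in young, 81.5, 76.2 and 74.7 CPM in aged and 90.0, 76.3 and 72.1 CPM in 8-AG treated retina. Itgb5 was at 72.8, 71.6 and 60.8 CPM in young, 77.1, 74.7 and 72.2 CPM in aged and 96.5, 71.1 and 63.6 CPM in treated retina. Groups overlapped for both subunits, and treated library 1 was the highest of the 9 for both, as it was for Mertk and Rpe65. The log2 fold changes of aged against young were 0.09 ± 0.06 for Itgav and 0.13 ± 0.08 for Itgb5 (adjusted p = 0.385 and 0.324). With single libraries left out they were lowest at 0.05 for Itgav, without aged library 1, and at 0.04 for Itgb5, without young library 3.

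Mfge8, the ligand of that integrin, was at 366, 338 and 352 CPM in young, 279.9, 303 and 299 CPM in aged and 293, 298 and 265 CPM in 8-AG treated retina. Young libraries lay above all 6 others. It fell by 16.5% in aged against young retina (log2 fold change -0.26 ± 0.06, adjusted p = 0.017) and by 18.8% in treated against young retina (-0.30 ± 0.07, adjusted p = 0.019). The first call was lost without young library 1 (log2 fold change -0.23, adjusted p = 0.086). The second was lost without any one of the young libraries, with log2 fold changes of -0.27, -0.32 and -0.30 and adjusted p of 0.079, 0.05 and 0.054 without library 1, 2 and 3. Gas6 in treated against young retina fell short of the threshold (log2 fold change -0.18 ± 0.06, adjusted p = 0.08).

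Cd36, a scavenger receptor for oxidized lipids and outer segments, was close to the limit of detection in retina. Young libraries gave 0 (which allows up to 3), 4 and 3 counts of it, aged libraries 8, 11 and 10 and treated libraries 16, 13 and 13, and the 3 groups did not overlap. It did not pass the filter on low counts in aged against young retina. Without the filter the log2 fold change was 1.93 ± 0.68 (adjusted p = 0.068). Against young and against aged retina it reached the filter in the treated libraries only, where it is high, so its test there is not used and its 7, 29 and 42 counts in young, aged and treated retina stand as a description. Gulp1, an adaptor that links uptake receptors to engulfment, was at 40.4, 49.6 and 48.9 CPM in young, 51.5, 47.7 and 45.4 CPM in aged and 56.8, 54.0 and 55.7 CPM in treated retina. Young and aged libraries overlapped for Gulp1, and the treated libraries were above both.

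In aged against young retina, 6 of the 10 members had groups that did not overlap, 4 of them higher and 2 lower, and 5 of these 6 were among the 9 tested, against 35.0% of all genes tested. Markers of other cells moved between the same groups. The summed level of 13 microglia and macrophage markers was 41.2 to 43.7 CPM in young, 124 to 213 CPM in aged and 142 to 149 CPM in 8-AG treated retina, 10 of the 11 that could be tested were higher in aged retina at an adjusted p under 0.05, and none of the 13 was at 0 in every library of a group. Aged library 2, the highest for Axl and Pros1, was also the highest for this sum, and its sum of 5 erythrocyte markers was 469.9 CPM, against 92.0 and 102 CPM in the other aged, 29.7 to 50.9 CPM in young and 62.9 to 158 CPM in treated libraries. Of 8 endothelium markers, 7 had higher estimates in aged than in young retina (median log2 fold change 0.44) and 1 of these passed an adjusted p under 0.05. Their sum, 685 to 759.7 CPM in young, 648 to 767 CPM in aged and 578 to 722 CPM in treated retina, was mostly Kdr, at 580.3 to 656 CPM in young and 456 to 618 CPM in aged retina. Vwf was at 19.2 to 23.9 CPM in young retina, at 42.3, 79.2 and 33.4 CPM in aged libraries 1 to 3 and at 29.7 to 45.8 CPM in treated retina. The rod marker sum was 57102 to 62176 CPM in young, 36097 to 40863 CPM in aged and 36493 to 48487 CPM in treated retina, with lower estimates in aged than in young retina for all 13 markers, 10 of them at an adjusted p under 0.05. The sum of 8 Müller glia markers was 3968 to 4281 CPM over the 9 libraries, but its members went apart in aged against young retina, where 3 passed the test as higher and 1 as lower. Gfap, which reactive Müller glia express, was at 21.1 to 33.3 CPM in young and 219 to 445 CPM in aged retina, and Glul, the most abundant of the list, at 2589.7 to 2773 CPM in young and 1739.6 to 2145 CPM in aged retina. The sum of 8 lens markers was 147 to 6033 CPM in young, 17.0 to 23.9 CPM in aged and 19.4 to 1701 CPM in treated retina. The part of these cell types in the changes of the members was not tested.

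The second comparison asked what 8-AG changed in the aged retina. None of the 10 members passed an adjusted p under 0.05 between 8-AG treated and untreated aged retina, where 3 of 14631 genes (0.0205%) did, and none did by DESeq2's Wald test either. Gulp1 was the only member with an unadjusted P under 0.05, as 3.67% of all genes had, and its log2 fold change was 0.20 ± 0.08 (adjusted p = 0.996). Of the 9 members that reached the filter in both groups, Gulp1 alone had groups without overlap, its treated libraries all lying above the aged ones, against 8.64% of all genes. None of the 3 genes called over the whole table reached the filter in both groups. Markers of RPE had higher estimates in treated than in aged retina for all 12 that were tested (median log2 fold change 0.65), none at an adjusted p under 0.05, and their part in the levels of the members was not tested.

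The intervals of the treated against aged difference bound what these libraries could show. For Axl the 95% interval ran from -0.32 to 0.48 on the log2 scale, for Gas6 from -0.06 to 0.24, for Pros1 from -0.51 to 0.16 and for Mfge8 from -0.21 to 0.12. Mertk had the widest interval of the 3 TAM receptors, from -0.45 to 0.72, and treated library 1 was far above the other 2. Without it the log2 fold change of Mertk was -0.16 in place of 0.13, and those of Itgav and Itgb5 were -0.07 and -0.15 in place of 0.03 and 0.04. The treated and untreated retina libraries also differ in the RNA type given by the labels, which cannot be told apart from treatment. Against young retina, a comparison that shares its young libraries with aged against young, Cd36 is left out of the counts. Of the other 9 members, Axl and Pros1 were higher and Mfge8 was lower in treated retina, against 14.9% of all genes called, 7.78% higher and 7.1% lower. Axl alone of these 9 passed the 1.5-fold rule (8.58% of all genes), and 6 of the 9 had groups without overlap (35.5%). Pros1 rose there by 0.38 ± 0.08 on the log2 scale (adjusted p = 0.013) and lost the call without young library 2 (0.37, adjusted p = 0.063) or treated library 2 (0.36, 0.061).

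**Figure D2:**
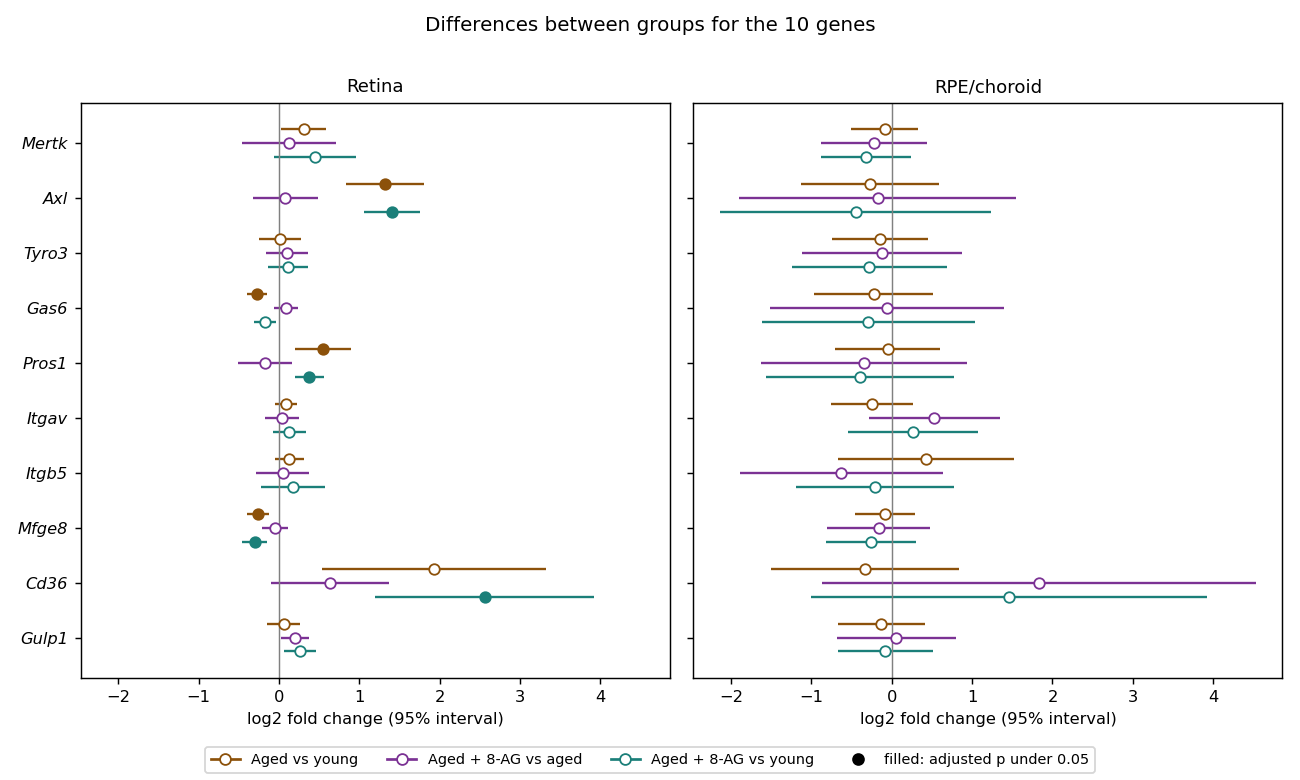
Log2 fold changes of the 10 genes in retina and in RPE/choroid for the 3 comparisons of groups, with 95% intervals as lines, from edgeR's fit of 6 libraries each. Filled points have an adjusted p under 0.05; Cd36 in aged against young retina comes from the fit without a filter, and in the other retina comparisons it reached the filter in the treated libraries only. Filled points occur in retina only, and every interval in RPE/choroid crosses 0.

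RPE/choroid is the tissue in which outer segments are taken up. None of the 10 members passed an adjusted p under 0.05 in any of its 3 comparisons, and no gene did among the 16047, 16257 and 16215 tested for aged against young, 8-AG treated against aged and 8-AG treated against young. At an unadjusted P under 0.05, 341, 274 and 341 genes passed (2.13%, 1.69% and 2.1%), and none of them was a member. By the 1.5-fold rule 1.35%, 1.65% and 1.99% of all genes were called, again without a member. With a score of rod markers as a covariate that rule called Itgb5 (log2 fold change -0.68) and Pros1 (-0.60) in 8-AG treated against aged RPE/choroid, where it called 6.45% of all genes. In 8-AG treated against young RPE/choroid it then called Axl (-1.28), Pros1 (-0.92), Tyro3 (-0.60) and Cd36 (1.14), with 19.5% of all genes, and no member or other gene passed an adjusted p under 0.05 in either. DESeq2's Wald test called 29, 81 and 98 genes in the same order and no member. The standard errors were larger than in retina, with a median over the members of 0.26 against 0.09 in aged against young.

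**Figure D3:**
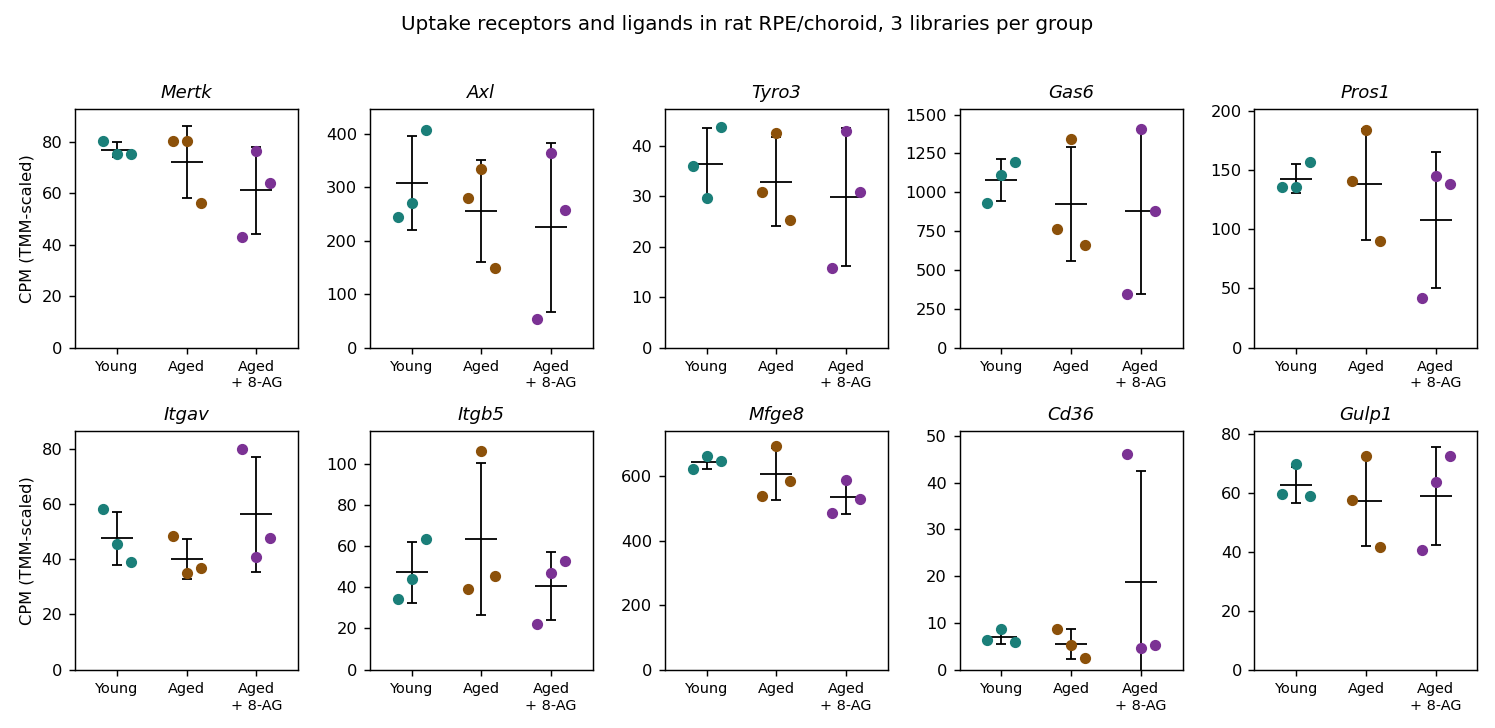
Level of each of the 10 genes in RPE/choroid, in CPM on a linear axis from 0, for the 3 groups of rats. Points are the 3 libraries of a group in the order 1 to 3, horizontal bars are means and vertical bars are SD (for Cd36 in treated rats the bar reaches below 0 and is cut at the axis); treated library 1 is the lowest of all 9 for 8 genes and the highest for Itgav and Cd36.

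Mertk was at 80.4, 75.0 and 75.3 CPM in young, 80.2, 80.2 and 56.0 CPM in aged and 43.1, 76.4 and 63.8 CPM in 8-AG treated RPE/choroid. Axl was at 245, 272 and 408 CPM in young, 281, 335 and 149.7 CPM in aged and 53.9, 364 and 257 CPM in treated libraries. Tyro3 was at 36.0, 29.7 and 43.7 CPM in young, 30.9, 42.5 and 25.2 CPM in aged and 15.8, 43.0 and 30.9 CPM in treated libraries. For all 3 TAM receptors aged library 3 was the lowest of the aged and treated library 1 the lowest of all 9, and the groups overlapped. The log2 fold changes of aged against young were -0.09 ± 0.17 for Mertk, -0.27 ± 0.35 for Axl and -0.15 ± 0.25 for Tyro3.

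The ligands followed the same libraries. Gas6 was at 933, 1110.2 and 1193 CPM in young, 766, 1342 and 659 CPM in aged and 344, 1409.8 and 879 CPM in treated RPE/choroid, and Pros1 was at 135, 136 and 157 CPM in young, 141, 183 and 89.6 CPM in aged and 41.6, 144 and 138 CPM in treated RPE/choroid. Aged library 2 was the highest aged library and treated library 1 the lowest of all for both, with no separation of groups. Mfge8 was at 622, 662 and 649 CPM in young, 540.4, 695 and 587 CPM in aged and 486, 589 and 530.4 CPM in treated RPE/choroid. It was the only member with groups that did not overlap in any RPE/choroid comparison, all 3 treated libraries being below the young ones (log2 fold change -0.25 ± 0.23, adjusted p = 1.0). Over all genes the groups did not overlap for 7.19%, 3.99% and 5.93% in aged against young, 8-AG treated against aged and 8-AG treated against young.

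The integrin subunits differed from each other across the RPE/choroid libraries. Itgav was at 58.1, 45.4 and 38.97 CPM in young, 48.4, 35.0 and 36.8 CPM in aged and 79.9, 40.9 and 47.8 CPM in treated libraries. Itgb5 was at 34.2, 43.9 and 63.5 CPM in young, 39.02, 106 and 45.3 CPM in aged and 22.1, 47.1 and 52.9 CPM in treated libraries. The highest Itgb5 level came from aged library 2 and the highest Itgav level from treated library 1, in which Itgb5 was lowest. Cd36 was at 6.39, 8.61 and 5.87 CPM in young, 8.68, 5.35 and 2.45 CPM in aged and 46.1, 4.70 and 5.22 CPM in treated libraries, and Gulp1 at 59.4, 69.8 and 58.8 CPM in young, 57.5, 72.5 and 41.7 CPM in aged and 40.6, 63.6 and 72.5 CPM in treated libraries. The mean of Cd36 in treated RPE/choroid, 18.7 ± 23.7 CPM (SD, n = 3), thus rested on 1 library.

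**Figure D4:**
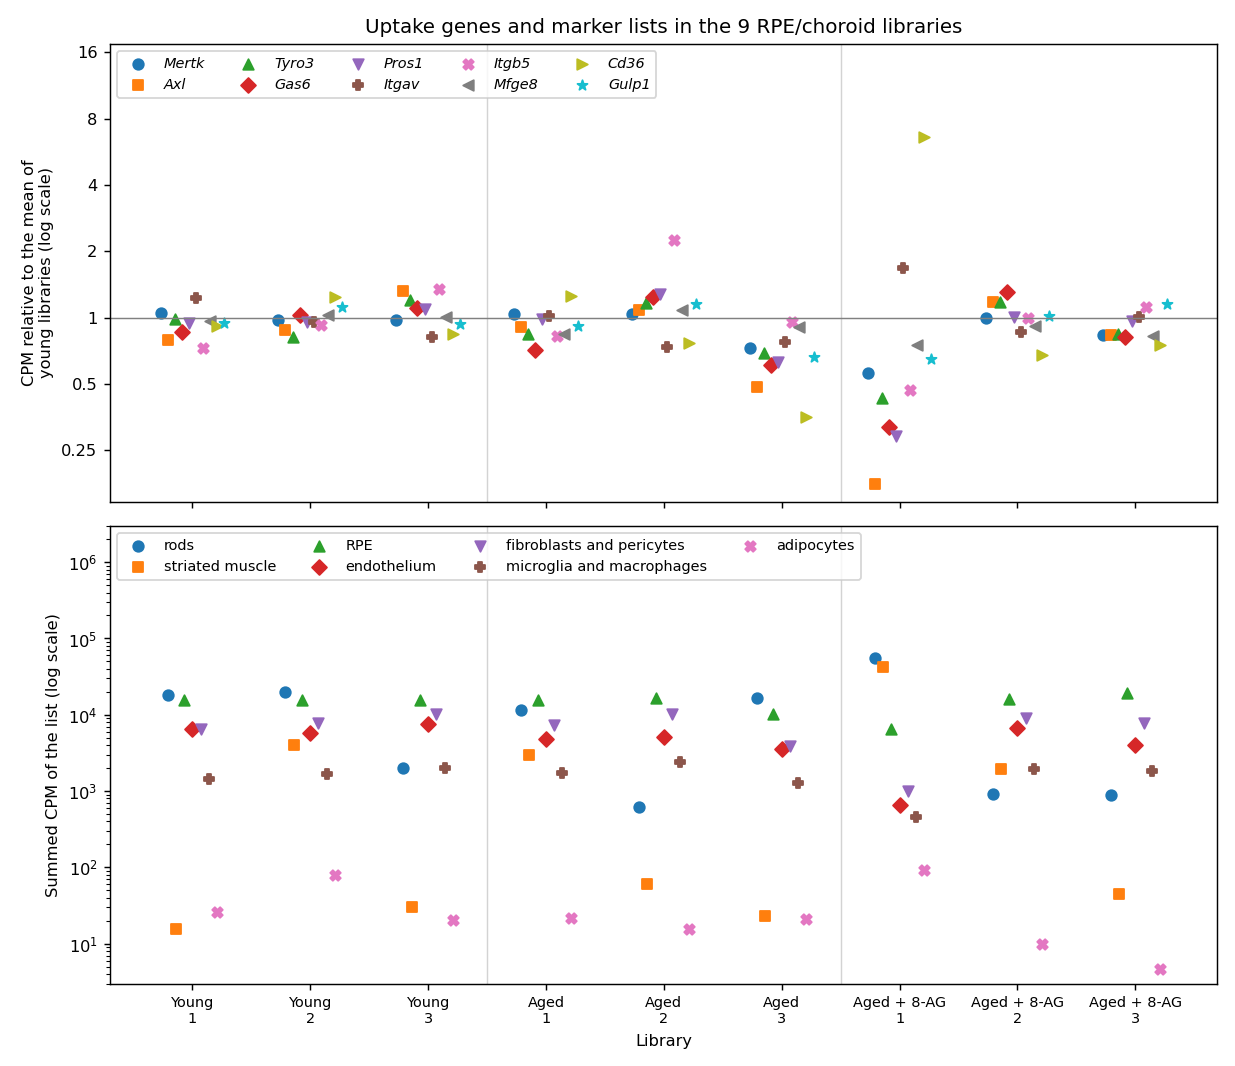
The 9 RPE/choroid libraries side by side. Upper panel, level of each of the 10 genes relative to its mean in young libraries, on a log axis; lower panel, summed CPM of 7 lists of cell type markers, on a log axis. In 8-AG treated library 1 Axl lies at the bottom and Cd36 at the top of the upper panel, while rod and striated muscle sums are at their highest and endothelium, fibroblast and pericyte, and microglia and macrophage sums at their lowest.

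Treated library 1 was the lowest of the 9 libraries for 38.2% of all genes and the highest for 29.4%. Its rod marker sum was 54997 CPM, against 616 to 19924 CPM in the other 8, and its striated muscle sum was 41660.1 CPM, against 15.6 to 4068 CPM. Its endothelium sum was 666 CPM (3518 to 7572 in the others), its fibroblast and pericyte sum 1009 CPM (3868 to 10362) and its microglia and macrophage sum 455 CPM (1261 to 2410.2). The RPE marker sum was the lowest there at 6533 CPM (10138 to 19243 in the others), yet Rpe65 itself was at its highest, 601 CPM against 26.8 to 332 CPM. Pmel, a pigment gene that choroidal melanocytes also express and the list's most abundant member elsewhere, was at 318 CPM there and at 3696 to 9488 CPM in the others. The adipocyte sum, which includes Fabp4 and Adipoq, was 92.9 CPM there and 4.67 to 80.2 CPM in the others. Young library 2 and aged library 1, which hold the next highest Cd36 levels, also hold the next highest striated muscle sums, 4068 and 2949 CPM, but treated library 2, the next by that sum at 1931 CPM, had the second lowest Cd36 level of the 9. The part of these cell types in the levels of the members was not tested.

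All 10 members were refitted without that library. For 8-AG treated against aged RPE/choroid the log2 fold changes then ran from -0.35 for Itgb5 to 0.31 for Gas6, with 6 estimates above 0 and 4 below, and the smallest P was 0.383. With it, 3 estimates were above 0 and 7 below, from -0.63 for Itgb5 to 1.83 ± 1.09 for Cd36. Cd36 went from 1.83 to -0.15 and Itgav from 0.53 to 0.14. Itgb5 was at -0.04 when aged library 2, its highest, was left out instead. Against young RPE/choroid the estimates without treated library 1 ran from -0.48 for Cd36 to 0.12 for Gulp1, with a smallest P of 0.147, and Axl went from -0.45 to 0.01. The 95% interval of Mertk in treated against aged RPE/choroid ran from -0.88 to 0.43 with the library and from -0.60 to 0.51 without it, and that of Mfge8 from -0.80 to 0.48 and from -0.64 to 0.39.

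Whether aging changed the genes differently in the 2 tissues was tested as an interaction over 12 libraries with limma, on voom values with quality weights. No member passed (5 of 16792 genes, 0.0298%, did). Axl came closest, with a difference of -1.64 ± 0.47 on the log2 scale, RPE/choroid minus retina (adjusted p = 0.247). The rise of Axl in aged retina is therefore not shown to be particular to retina. The difference for Cd36 is not used, because its young retina libraries gave 0, 4 and 3 counts, close to the limit of detection. For the change with 8-AG, no member and none of the 16915 genes tested differed between the tissues at an adjusted p under 0.05, and members' differences ran from -0.59 for Itgb5 to 0.42 for Itgav.

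Genes whose levels ran most like Mertk differed between the tissues. In retina, over the 9 libraries, the 3 genes with the highest Pearson correlation of log2 CPM with Mertk, among 11545 genes of at least 5 CPM, were Specc1 (r = 0.97), Parva (0.96) and Ly75 (0.96). Each was highest in treated library 1, at 68.7, 84.0 and 11.9 CPM, and second highest in aged library 1, the libraries in which Mertk was highest. Itgav ranked 7 in that order (r = 0.93) and Itgb5 59 (0.84), whereas Axl ranked 1172 (0.55) and Tyro3 had r near 0. In RPE/choroid the 3 nearest of 11792 genes were Adgra2, Pik3r1 and Cpd (r = 0.99 each), and all 3 were lowest in treated library 1, at 16.8, 30.4 and 16.9 CPM. Pros1 ranked 302 there (r = 0.94) and Axl 483 (0.92), while Itgav ran the other way (r = -0.55). The libraries share depth scaling and, in RPE/choroid, the library that stands apart, and these values describe likeness over 9 points without a test.

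The spread within groups told the tissues apart as well. The median coefficient of variation of the 10 members was 6.81%, 6.49% and 7.53% in young, aged and treated retina, against 7.15%, 8.54% and 9.77% over all genes of at least 1 CPM. In RPE/choroid it was 15.8%, 30.5% and 42.9%, against 15.8%, 21.7% and 38.6% over all genes. Pros1 in young retina was the steadiest value, with 1.79%, and Cd36 in treated RPE/choroid the most variable, with 127%.

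Other genes of the uptake pathway were counted in 3 lists, chosen like the members with earlier results of these data known. In aged against young retina, 6 of 15 tested genes of other uptake ligands and receptors passed an adjusted p under 0.05 (3 higher, 3 lower, median log2 fold change 0.15), 1 of 17 genes of engulfment signalling and the cytoskeleton passed (higher, median 0.11) and 5 of 22 genes of phagosome transport and digestion passed (4 higher, 1 lower, median 0.03), against 14.6% of all genes and a median of 0.002. Cd47, the signal that restrains phagocytes, rose by 0.58 ± 0.07 on the log2 scale (adjusted p = 0.00055), the engulfment receptor Megf10 by 0.51 ± 0.10 (0.0097) and the phagocytic signal calreticulin (Calr) by 0.35 ± 0.06 (0.0049). Scarb1, a lipoprotein receptor, fell by 0.48 ± 0.06 (adjusted p = 0.00066), and Tulp1 and Tub, photoreceptor and neuronal proteins that have been described as MERTK ligands, fell by 0.39 ± 0.06 (0.003) and 0.36 ± 0.06 (0.0045).

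Downstream of the receptors, the cholesterol exporter Abca1 rose by 0.97 ± 0.10 on the log2 scale in aged against young retina (adjusted p = 0.00031), from 27.8 ± 2.89 to 54.6 ± 4.62 CPM (SD, n = 3). Among digestion genes the lysosomal protease Ctss, a gene that microglia express strongly, rose most, by 2.03 ± 0.23 (adjusted p = 0.003), from 9.26 ± 0.305 to 37.8 ± 11.8 CPM. Lamp2, a lysosomal membrane protein, rose by 0.39 ± 0.10 (0.028) and the protease cathepsin D (Ctsd) by 0.33 ± 0.08 (0.017). The transport motor Kif5b had a log2 fold change of -0.21 ± 0.06 (0.048). With single libraries left out, the number passing was 6 to 8, 1 to 2 and 1 to 5 in the 3 lists, and the digestion list had 1 without young library 2 or 3, 2 without young library 1 and 3 without aged library 2 or 3.

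None of the 55 pathway genes tested in 8-AG treated against aged retina passed an adjusted p under 0.05, and 1 had an unadjusted P under 0.05: Abca1, at 40.6 ± 5.24 CPM after 8-AG against 54.6 ± 4.62 CPM (SD, n = 3), differed by -0.43 ± 0.11 on the log2 scale (adjusted p = 0.996). The smallest P values after it belonged, in the same list, to Myo7a, a motor protein of the RPE, with 0.44 ± 0.31, and in the other 2 lists to Itgb8 (0.47 ± 0.37) and Scarb1 (-0.08 ± 0.07) and to Mreg (0.12 ± 0.07) and Atp6v1a (0.11 ± 0.07), all with an adjusted p of 0.996. Treated against young retina, 7 of 14, 1 of 15 and 3 of 22 genes that reached the filter in both groups passed, against 14.4% of all such genes, among them Ctss (log2 fold change 1.84 ± 0.11, adjusted p = 1.7e-05) as higher and Stab2 (-0.99 ± 0.26, 0.032) as lower. Trem2, a receptor of microglia, Stab1 and Myo7a reached it in the treated libraries only and are given as levels. Trem2 stood at 1.23 ± 0.212 CPM in treated and 0.322 ± 0.102 CPM in young retina, Stab1 at 1.67 ± 0.104 and 0.575 ± 0.321 CPM, and Myo7a at 4.23 ± 1.34 and 1.39 ± 0.868 CPM (SD, n = 3). With these 3 genes counted, 9, 2 and 3 genes passed, and with single libraries left out the numbers were 4 to 7, 0 to 3 and 3 to 4 in the 3 lists. The first fell to 4 without young library 2 or treated library 2 and to 5 without young library 3, and the second, which holds Myo7a, to 0 without young library 1 or 3 or treated library 2 and to 1 without treated library 1. With the RPE gene score as a covariate they were 1, 0 and 1.

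In RPE/choroid no gene of the 3 lists passed in any comparison. In aged against young RPE/choroid the smallest P values belonged to the sheddase Adam17, which can cleave MERTK (log2 fold change -0.59 ± 0.17), to Itgb3 (-0.82 ± 0.31) and to the adaptor Crk (-0.46 ± 0.18), each with an adjusted p of 1.0. After 8-AG, against aged RPE/choroid, they belonged to Map1lc3a (-1.22 ± 0.46) and Lamp1 (-2.10 ± 0.82), again with an adjusted p of 1.0. Lamp1 was at 188 ± 113 CPM in treated and 810.2 ± 564 CPM in aged libraries (SD, n = 3), and in 8-AG treated against young RPE/choroid none of the 56 genes tested had a P under 0.05.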

How the data were processed

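The authors deposited RSEM expected counts per gene for the 9 retina libraries and raw read counts per gene for the 9 RPE/choroid libraries, neither normalized. Bowtie2 2.1.0, RSEM 1.2.15, edgeR and the build Rnor_6.0 are named in the submitters' processing notes, and the counting program for RPE/choroid is not given in the sources used here. Expected counts (11.5% not whole) were rounded. A deposited retina table of TMM-scaled signal was read only for gene symbols, which were matched to identifiers by their values within 0.2% (1581 identifiers); RPE/choroid tables named the other 16680, and 89.0% of the 14944 of these that could be checked had the values of their symbol's row. The authors' own fold changes, p-values and normalized values were not used.

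Pairs of groups (6 libraries) were tested in R 4.3.3 by edgeR 4.0.16 (filterByExpr, TMM, glmQLFit with robust=TRUE, glmQLFTest), with Benjamini-Hochberg adjustment over all genes tested. Tissue differences were fitted with limma 3.58.1 (voomWithQualityWeights, 12 libraries). An exact permutation test of 3 against 3 cannot go below p = 0.1. Correlations with Mertk used log2(CPM + 0.5). The main edgeR fit of each comparison and the tissue fit for aging were checked on simulated data, and the other fits were not. No 2 libraries of a group agreed within sampling noise.

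All 10 members are named. Genes of the pathway lists are named where they passed an adjusted p under 0.05, at most 3 per direction, list and comparison, or, where none passed, the 2 with the smallest P. Members and lists were chosen with earlier results of these data known. Alternatives changed 1 choice each, but DESeq2 also used its own size factors and filtering (21052 genes in aged against young retina, where edgeR tested 14588), and fits of 3 groups (14875 genes), of summed or unrounded counts and without a library filtered anew. They were DESeq2 1.42.0 (Wald test), RLE size factors, robust=FALSE, unrounded counts, a block for replicate number, a single fit of the 3 groups, a rod score as covariate, summing libraries that share a label number, omitting the filter or raising it to 10 counts per library, and dropping single libraries. The score of 5 RPE genes (Rpe65, Lrat, Ttr, Rgr, Rdh5) was added after seeing the data. Tables and figures were made in Python 3.11.15.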

Additional observations from a re-analysis of the deposited data

How the results depend on the processing

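Depth limits Cd36 in retina, with at most 16 counts a library, and the spread between libraries limits RPE/choroid, where standard errors were larger than in retina. Axl in retina kept its direction and its call against young under every alternative run, with log2 fold changes of 1.08 to 1.48 in aged against young and 1.06 to 1.57 in 8-AG treated against young retina. The number of members with an adjusted p under 0.05 in aged against young retina was 4 and ranged from 1 to 4 with single libraries left out (1 without young library 1, 2 without young library 2). Pros1 missed the threshold without the filter on low counts (adjusted p = 0.066). For 8-AG treated against young retina the number was 3 of 9 without Cd36, which reached the filter in the treated libraries only, and 1 to 3 with single libraries left out (1 without young library 2). With Cd36 it was 4, and 2 to 4. With the RPE gene score as a covariate it was 1, since Pros1 (log2 fold change 0.37, adjusted p = 0.159) and Mfge8 (-0.30, 0.16) lost their calls with nearly the same estimates, while the calls over all genes went from 2164 to 522. Pros1 there also missed it with all 3 groups in one fit (0.083). The number with a fold change over 1.5 and P under 0.05 in aged against young retina went from 1 to 2 without the filter, with all 3 groups in one fit and with the RPE gene score, and ranged from 1 to 2 with single libraries left out. Treated against young retina, it went from 2 to 1 with at least 10 counts in every library, a filter that removes Cd36 and leaves Axl. In RPE/choroid it went from 0 to 2 (8-AG treated against aged) and to 4 (8-AG treated against young) with the rod score as a covariate, under which the share of all genes called by that rule went from 1.65% to 6.45% and from 1.99% to 19.5%, and ranged from 0 to 1 in aged against young with single libraries left out (1 without aged library 2). The causes were not tested. Over all genes, calls in aged against young retina went from 2127 to 1243 without young library 2, and DESeq2, with its own size factors and filtering, called 18 genes in 8-AG treated against aged retina where edgeR called 3. No reversed sign belonged to a value past the threshold. With the RPE gene score, 8-AG treated against aged retina gave log2 fold changes of -0.11 for Mertk, 0.032 for Pros1, -0.028 for Itgav and -0.051 for Itgb5, 8-AG treated against young retina gave -0.106 for Itgb5, and 8-AG treated against aged RPE/choroid gave 0.007 for Mertk, 0.329 for Axl, 0.213 for Tyro3, 0.384 for Gas6 and 0.109 for Pros1. In that last comparison Gulp1 was at -0.002 with the rod score and Gas6 at 0.047 with libraries sharing a label number summed. With single libraries left out, signs reversed within these ranges. In aged against young retina they were Gulp1 -0.025 to 0.12 and Tyro3 -0.052 to 0.087. Treated against aged retina, they were Pros1 -0.28 to 0.041, Axl -0.052 to 0.33, Mertk -0.16 to 0.30, Itgav -0.065 to 0.11, Itgb5 -0.15 to 0.17 and Mfge8 -0.074 to 0.012, and against young retina Itgb5 -0.018 to 0.30. In aged against young RPE/choroid they were Pros1 -0.31 to 0.19, Itgb5 -0.17 to 0.68, Mertk -0.18 to 0.069, Axl -0.52 to 0.004, Tyro3 -0.38 to 0.016, Cd36 -0.84 to 0.021 and Gulp1 -0.34 to 0.058. Treated against aged RPE/choroid, they were Axl -0.71 to 0.28, Tyro3 -0.48 to 0.16, Gas6 -0.58 to 0.31, Gulp1 -0.13 to 0.27, Pros1 -0.61 to 0.030 and Cd36 -0.15 to 2.31. Treated against young RPE/choroid, they were Gulp1 -0.25 to 0.12, Itgb5 -0.43 to 0.087, Axl -0.97 to 0.015, Tyro3 -0.61 to 0.023, Gas6 -0.79 to 0.089, Itgav -0.091 to 0.48 and Cd36 -0.48 to 1.95.

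Correlations of deviations between libraries of the same replicate number ranged from -0.336 to 0.208 in retina and from -0.644 to 0.751 in RPE/choroid. Libraries of different numbers were not compared, so these values cannot decide whether the replicate number pairs libraries. With the number as a replicate block, 3 members passed in aged against young retina (Mfge8 at an adjusted p of 0.053), where 11.6% of all genes did, 3 of the 9 other than Cd36 in 8-AG treated against young retina (13.2% of all genes) and none in the other comparisons.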
